A study of Mus musculus with 14 samples.

Results

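The genes described here are the 3 members of the p53 family, Trp53, Trp63 and Trp73, and 4 negative regulators of p53, Mdm2, Mdm4, Ppm1d and Usp7. They were chosen by name and make up 7 of the 30503 genes of the count table. They were followed in 14 clones, each a culture grown from a single tdTomato+ cell of mouse femoral bone marrow and profiled by bulk RNA-seq. The Fgfr3-WT (P23) group holds 5 clones of genotype Fgfr3-creER; R26R(tdTomato/+), isolated at postnatal day 23. The Fgfr3-p53 cKO (P28) group holds 5 clones of genotype Fgfr3-creER; Trp53fl/fl; R26R(tdTomato/+), isolated at postnatal day 28, and the Fgfr3-p53 cKO (P4M) group holds 4 clones of the same genotype from animals of 4 months. All animals received tamoxifen at P21. The Fgfr3 promoter drives the tamoxifen-activated Cre recombinase in all 14 clones, and this Cre switches on the tdTomato reporter and, in the cKO clones, deletes the floxed part of Trp53. The Fgfr3-WT clones carry no floxed Trp53, so no group has the floxed allele without its deletion. By the labels, cells were at passage 8 in the Fgfr3-WT and P28 clones and at 6 to 8 in the P4M clones, whereas the study's methods give the wider range for both cKO groups. The labels do not say which clones share an animal, and the study calls the same samples clones in some places and mice in another, so the p-values are taken to measure the spread between clones only. The sample names of the Fgfr3-WT group carry the number 1303 and those of both cKO groups 2963, without a statement of what the number marks, so whatever it marks, genotype and, in part, age cannot be told apart in any comparison with the Fgfr3-WT clones. The total count per clone was 25688946 to 38958693 in the Fgfr3-WT group, 37606033 to 48648618 in the P28 group and 43757832 to 52857424 in the P4M group.

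The protein p53 is a transcription factor that arrests the cell cycle or kills the cell after DNA damage and other stress, and its loss is the best known genetic lesion of osteosarcoma. Its amount and activity are set largely after translation. Mdm2 is the ubiquitin ligase that marks p53 for degradation, and its gene is itself a p53 target, which closes a negative feedback loop. Mdm4 lacks strong ligase activity of its own but pairs with Mdm2 and covers the activation domain of p53. Ppm1d, also called Wip1, is a phosphatase that removes the activating phosphates from p53 and from its upstream kinases, and its gene is also induced by p53. Usp7, also called HAUSP, removes ubiquitin from Mdm2 and from p53. The relatives p63 and p73 bind the same kind of DNA element. p63 is best known as a regulator of stratified epithelia, and p73 of neural and ciliated cells.

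The sequences just upstream of Trp53, Mdm2 and Ppm1d are shown because they hold a match to the p53 response element decamer, the 10-base unit that p53 and its relatives recognise. The 250 bases before each RefSeq start (GRCm38.p6, the build of mm10) were searched for it, and the decamer reads alike on both strands. Matches are in capitals, and each sequence runs 5′ to 3′ on the strand of its gene and ends 1 base before the RefSeq start.
Mdm2, chr10:117710759-117711008, minus strand: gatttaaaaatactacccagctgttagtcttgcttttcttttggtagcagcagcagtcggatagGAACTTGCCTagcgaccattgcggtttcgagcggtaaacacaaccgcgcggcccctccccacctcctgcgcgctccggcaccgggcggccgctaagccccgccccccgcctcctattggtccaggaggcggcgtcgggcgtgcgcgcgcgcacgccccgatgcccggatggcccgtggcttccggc
Ppm1d, chr11:85311004-85311253, plus strand: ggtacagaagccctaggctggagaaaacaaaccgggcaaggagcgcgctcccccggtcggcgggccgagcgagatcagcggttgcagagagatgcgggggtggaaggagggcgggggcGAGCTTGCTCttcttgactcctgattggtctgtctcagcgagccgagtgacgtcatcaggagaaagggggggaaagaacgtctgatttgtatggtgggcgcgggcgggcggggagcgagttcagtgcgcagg
Trp53, chr11:69580256-69580358, plus strand: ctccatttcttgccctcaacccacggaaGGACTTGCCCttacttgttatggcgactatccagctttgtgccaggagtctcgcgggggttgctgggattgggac
The match ended 177 bases before the start of Mdm2, 123 before that of Ppm1d and 66 before that of Trp53. For Trp53 the 103 bases shown are those between its start and that of Wrap53, which is read away from it on the other strand, as GENCODE M21 places both genes. No match was found in the windows of Mdm4, Trp73 and Usp7. Of 32851 RefSeq windows of this length, 7.13% held at least 1 match, so that a match describes the sequence and shows no binding. The well known p53 elements of Mdm2 lie at its internal promoter, outside this window.

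Before the values, the libraries were compared over all 17358 tested genes. Within the P28 group, replicates 1 to 3 correlated with each other at r = 0.969 to 0.98 (log2 CPM, 3 pairs) and replicates 4 and 5 at 0.976, but the 6 pairs across these subsets reached only 0.931 to 0.944. Fgfr3-WT replicate 1 correlated with the other Fgfr3-WT clones at 0.878 to 0.907, against 0.909 to 0.944 among the other 4. The cells were labelled as skeletal, and markers of other lineages were low. Summed over 7 haematopoietic markers the level was at most 0.85 TPM in any clone, and over 8 epithelial markers at most 2.95 TPM. The 9 skeletal stromal markers summed to 155 to 562 TPM in the Fgfr3-WT clones, 4729 to 7134 TPM in the P28 and 2228 to 12694 TPM in the P4M clones, most of it Col1a1 in the cKO clones. All 6 endothelial markers together stayed at or below 2.33 TPM outside the P4M group, and every P4M clone lay above that, at 3.06 to 108 TPM. Cdh5, which defines endothelium, was at 0 in every clone. Krt5, Epcam and Cdh1 were at 0 in all Fgfr3-WT clones. Dsg3 and Cd3e had no row in the count table.

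Trp53 (ENSMUSG00000059552, mm10 chr11:69580359-69591873, plus strand) is the deleted gene and was examined first. In CPM, the reads of a gene relative to its TMM-scaled library, the Fgfr3-WT clones 1 to 5 held 55.4, 49.9, 68.2, 50.4 and 51.1. The P28 clones held 2.47, 2.84, 2.37, 2.48 and 2.18 CPM, and the P4M clones 2.08, 2.37, 1.72 and 2.22 CPM. Every cKO clone lay far below every Fgfr3-WT clone. The mean of the P28 clones was 4.49% of the Fgfr3-WT mean, and that of the P4M clones 3.81%. The log2 fold change was -4.48 (standard error 0.154, edgeR adjusted p = 2.14e-09) in the P28 clones and -4.71 (standard error 0.172, adjusted p = 4.62e-09) in the P4M clones. Between the cKO groups the ranges overlapped and the difference was not called (log2 fold change -0.24, adjusted p = 0.323).

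The Trp53 signal that was left was small but measured, at 85 to 123 reads per cKO clone. Counts were summed over the gene, so they do not show from which exons these reads came, and the floxed allele keeps the exons outside its loxP sites. The processed pseudogene Trp53-ps held 1 to 3 reads in each Fgfr3-WT clone and none in any cKO clone. Wrap53, which starts on the other strand 103 bases away in GENCODE M21, was at 171 to 254 reads in the Fgfr3-WT clones and 306 to 568 in the deeper cKO libraries. Its log2 fold change was 0.28 (standard error 0.188, edgeR adjusted p = 0.26) in the P28 clones and 0.23 (standard error 0.199, adjusted p = 0.37) in the P4M clones. The 83 expressed genes within 5 Mb of Trp53 had a median that differed from the Fgfr3-WT mean by 0.13 (log2) in the P28 and 0.06 in the P4M clones, so Trp53 was low relative to its neighbourhood.

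Of the 7 genes, 6 passed the filter on low counts, and Trp73 did not. Against the Fgfr3-WT clones, 3 of the 6 were called in the P28 clones, all lower, and 4 in the P4M clones, 3 lower and 1 higher, at a false discovery rate of 0.05. Both counts include Trp53, which the cKO design deletes, so its call was fixed in advance. Of all 17358 genes tested, 38.9% were called in the P28 and 45.9% in the P4M clones, with 19.2% and 22.3% higher and 19.7% and 23.6% lower, so calls were common everywhere. The 2 comparisons share the Fgfr3-WT clones and are given side by side. Between the P4M and the P28 clones 7.22% of all genes were called, 3.34% higher and 3.88% lower, and none of the 6. At an unadjusted p under 0.05, edgeR had Ppm1d and Trp63 in this comparison, and DESeq2 called the same 2. With P28 replicates 1 to 3 alone, a choice made after seeing the data, 4952 genes and the same 3 of the 6 were called against the Fgfr3-WT group. Log2 fold changes were then -4.46 for Trp53, -2.25 for Mdm2 and -1.21 for Mdm4 (edgeR adjusted p = 1.06e-06, 0.0005 and 0.00709). The median log2 fold change of all tested genes lay between -0.06 and -0.01 in the 3 comparisons.

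**Figure D1:**
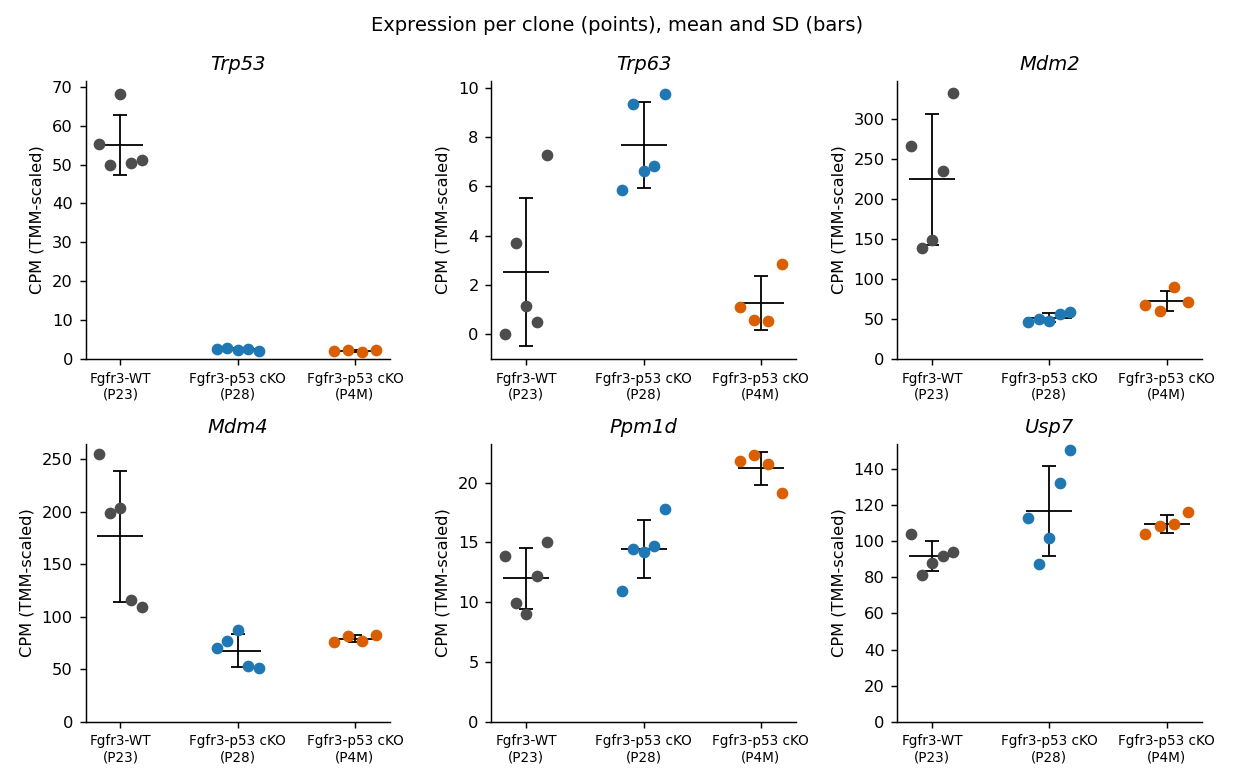
Expression of 6 genes in each clone, in TMM-scaled CPM on a linear axis, with points in replicate order and bars for the mean and SD of each group (n = 5, 5 and 4). Trp53, Mdm2 and Mdm4 of all 9 cKO clones lie below all 5 Fgfr3-WT clones, Ppm1d of the P4M clones lies above all other clones, and Trp63 ranges from 0 to 7.28 CPM within the Fgfr3-WT group.

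Mdm2 and Mdm4, the partners that hold p53 in check, both fell in the cKO clones, Mdm2 to 23.1% of the Fgfr3-WT mean in the P28 and 32.1% in the P4M clones, and Mdm4 to 38.3% and 44.8%. Neither the P28 nor the P4M range of either gene overlapped that of the Fgfr3-WT clones, which was true of 24.5% and 33.6% of all tested genes. Fewer cells with a transcript and less transcript per cell cannot be told apart in these bulk libraries.

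Mdm2 (ENSMUSG00000020184, chr10:117688875-117710758, minus strand) was at 266, 139, 149, 235 and 333 CPM in the Fgfr3-WT clones. It was at 46.8, 50.3, 47.1, 55.6 and 58.7 CPM in the P28 clones, and at 67.5, 59.8, 89.7 and 71.4 CPM in the P4M clones. The Fgfr3-WT clones spread widely, with a coefficient of variation of 36.3%, and the P28 clones narrowly, at 10.2%. The log2 fold change was -2.12 (standard error 0.227, edgeR adjusted p = 4.11e-05) in the P28 clones and -1.64 (standard error 0.242, adjusted p = 0.000211) in the P4M clones. Every P4M clone lay above every P28 clone, as for 19.0% of all genes in either direction, but this difference was not called (log2 fold change 0.48, standard error 0.231, adjusted p = 0.209). The 34 expressed genes within 5 Mb of Mdm2 were also lower, with a median difference of -0.44 (log2) in the P28 and -0.29 in the P4M clones. Mdm2 fell further than these neighbours in each cKO clone, by 0.98 to 1.75 on the log2 scale.

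Mdm4 (ENSMUSG00000054387, chr1:132959484-133030561, minus strand) was at 254, 199, 203, 116 and 109.6 CPM in the Fgfr3-WT clones. The P28 clones held 70.0, 77.3, 87.0, 52.8 and 50.8 CPM, and the P4M clones 75.6, 81.4, 77.0 and 82.3 CPM. The spread was 4.2% in the P4M clones, 23.1% in the P28 clones, where replicates 4 and 5 were lowest, and 35.2% in the Fgfr3-WT clones, where replicates 4 and 5 were again lowest, although replicate numbers link no clones across groups. The log2 fold change was -1.38 (standard error 0.233, edgeR adjusted p = 0.000638) in the P28 clones and -1.16 (standard error 0.249, adjusted p = 0.00231) in the P4M clones. The P4M and P28 ranges overlapped, and their difference was not called (log2 fold change 0.23, adjusted p = 0.596). The pseudogene Gm29257 lies within Mdm4 on the other strand, shares no exonic base with it and held 53 reads over all clones.

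Mdm2 and Mdm4 were next compared within groups. Among the Fgfr3-WT clones, the highest Mdm2 in CPM, in replicate 5, went with the lowest Mdm4 in CPM. In TPM the lowest Mdm4 was in replicate 4, at 27.0 against 32.3 TPM in replicate 5. The ratio of Mdm2 to Mdm4 in TPM, which is scaled by gene length as well as depth, was 2.49, 1.40, 1.53, 4.46 and 7.02 in these clones. In the P28 clones it was 1.58, 1.33, 1.18, 2.50 and 3.03, and in the P4M clones 2.20, 1.71, 2.72 and 1.99. The 3 ranges overlapped. Over the 14 clones the log2 CPM of Mdm2 and Mdm4 had r = 0.732, and r = -0.502 once the mean of each group was taken out, a description over clones that differ in depth and in the number in their sample names.

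**Figure D2:**
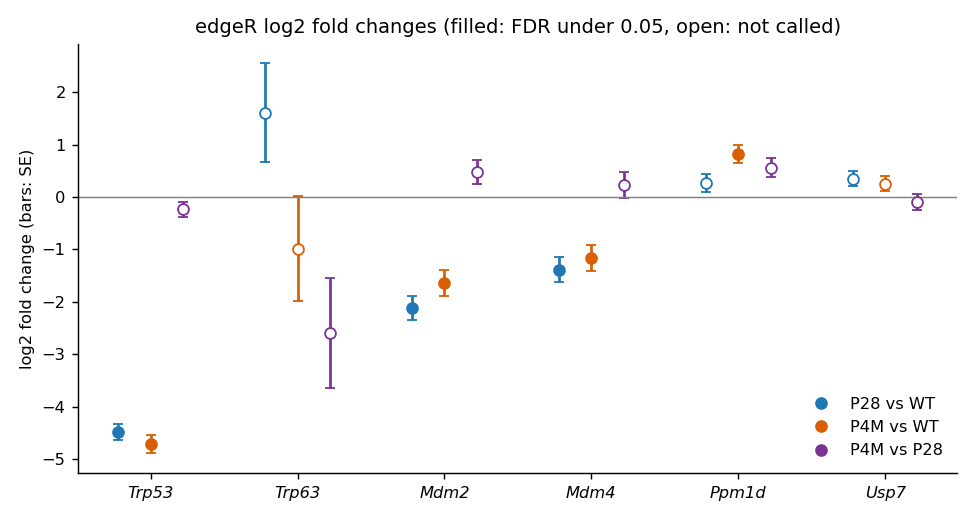
Log2 fold changes of the 6 tested genes by edgeR in the 3 comparisons, with bars for the SE, filled points for an FDR under 0.05 and open points for genes not called. Mdm2 and Mdm4 are lower in both cKO groups, Ppm1d is called only in the P4M clones, and no point of P4M against P28 is filled.

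The phosphatase gene Ppm1d and the deubiquitinase gene Usp7 were called lower in neither cKO group, unlike Mdm2 and Mdm4. With group means taken out, the log2 CPM of Mdm2 had r = 0.775 with Ppm1d and 0.446 with Usp7. For Mdm4 these were -0.427 and -0.384. Ppm1d (ENSMUSG00000020525, chr11:85311244-85347066, plus strand) was at 13.8, 9.91, 9.02, 12.2 and 15.0 CPM in the Fgfr3-WT clones. It was at 10.9, 14.4, 14.2, 14.7 and 17.8 CPM in the P28 clones and at 21.8, 22.3, 21.5 and 19.2 CPM in the P4M clones. The P28 range covered most of the Fgfr3-WT range, whereas every P4M clone lay above every other clone. Of all tested genes, 33.6% had P4M and Fgfr3-WT ranges without overlap in either direction, and 19.0% had such P4M and P28 ranges. Ppm1d rose 1.77-fold in the P4M clones (log2 fold change 0.82, standard error 0.18, edgeR adjusted p = 0.0026), where 22.3% of all genes were called higher. In the P28 clones the log2 fold change was 0.26 (standard error 0.17, adjusted p = 0.237). The P4M and P28 clones differed by a log2 fold change of 0.56 (with standard error 0.179, adjusted p = 0.0735), which was not called, and so a difference in the response of the 2 cKO groups is not shown. This difference was called without P28 replicate 5 (edgeR adjusted p = 0.0432) and without Fgfr3-WT replicate 1, where the adjusted p rounded to 0.05. DESeq2 also called it (adjusted p = 0.0255), as did an edgeR fit of these 2 groups alone (adjusted p = 0.0302).

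Usp7 (ENSMUSG00000022710, chr16:8689595-8792308, minus strand) was at 104, 81.3, 87.7, 91.7 and 93.8 CPM in the Fgfr3-WT clones. The P28 clones held 113, 87.5, 102, 132 and 151 CPM, and the P4M clones 104, 109, 109 and 116 CPM. The groups overlapped, and the P28 clones spread most. The log2 fold change was 0.35 (standard error 0.139, edgeR adjusted p = 0.0602) in the P28 clones and 0.26 (standard error 0.147, adjusted p = 0.169) in the P4M clones. The P28 value rested on replicates 4 and 5, since it was 0.10 (adjusted p = 0.553, edgeR) with replicates 1 to 3 alone. Without P28 replicate 2, Usp7 was called (log2 fold change 0.43, adjusted p = 0.0232).

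The spread of Usp7 among the P28 clones went with that of the genes around it on chromosome 16. The 46 expressed genes within 5 Mb had a median difference from the Fgfr3-WT mean of -0.17, -0.78, -0.37, 0.09 and 0.19 (log2) in P28 clones 1 to 5. Usp7 itself differed by 0.30, -0.06, 0.16, 0.53 and 0.72 in the same clones, which is the same order. In the 4 P4M clones the neighbours lay between -0.35 and -0.22 and Usp7 between 0.19 and 0.35. Less its neighbours, Usp7 was at 0.44 to 0.71 in the P28 clones, 0.46 to 0.70 in the P4M clones and -0.23 to 0.30 in the Fgfr3-WT clones, so these differences did not overlap between genotypes. They were looked at after the values were known and were not tested. The share of all genes separated in this way was not computed. Ppm1d of the P4M clones, less its own neighbours, also lay above the Fgfr3-WT clones, at 0.59 to 0.78 against -0.51 to 0.5. Its P28 clones, at -0.12 to 0.48, overlapped the Fgfr3-WT clones.

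**Figure D3:**
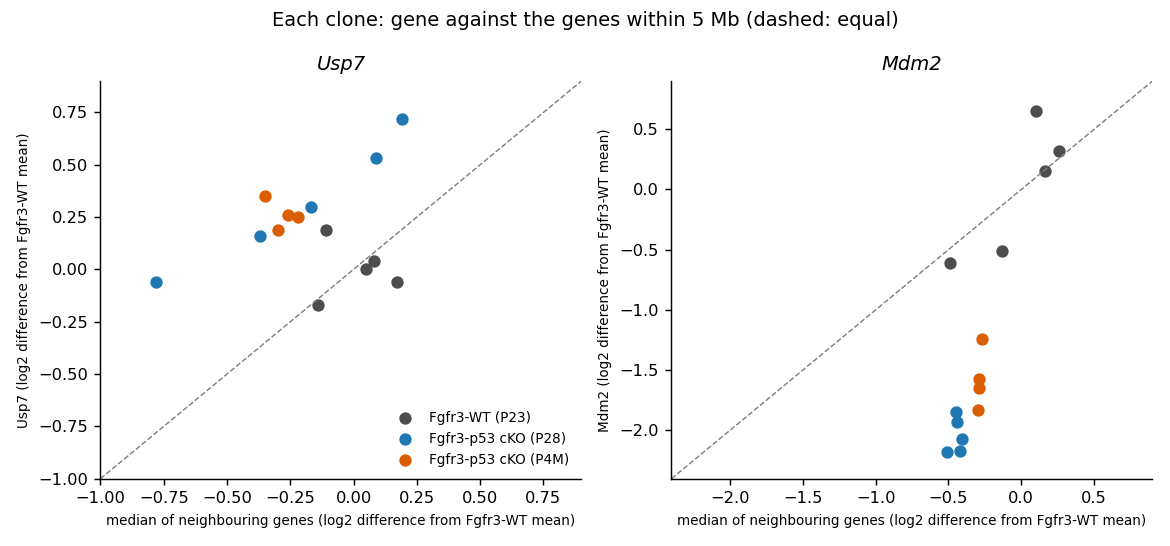
Log2 difference from the Fgfr3-WT mean of Usp7 (left) and Mdm2 (right) in each clone, against the median difference of the expressed genes within 5 Mb, with a dashed line where both are equal. Usp7 of the cKO clones lies 0.44 to 0.71 above the line along its whole length, and Mdm2 of the cKO clones lies 0.98 to 1.75 below it.

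Trp63 and Trp73, the relatives of Trp53, were low. Trp63 (ENSMUSG00000022510, chr16:25683763-25892102, plus strand) was at 0, 3.71, 1.13, 0.484 and 7.28 CPM in the Fgfr3-WT clones. It was at 5.85, 9.32, 6.62, 6.83 and 9.76 CPM in the P28 clones and at 1.11, 0.592, 0.514 and 2.86 CPM in the P4M clones. All 5 P28 clones lay above all 4 P4M clones, as for 19.0% of all genes in either direction. The Fgfr3-WT range of 0 to 7.28 CPM overlapped both groups. A count of 0 in Fgfr3-WT replicate 1 allows up to 3 reads, counting error only. None of the differences was called in the edgeR fit of all clones. DESeq2 called P4M against P28 (adjusted p = 0.0352), as did limma on log2(TPM + 1) (adjusted p = 0.0168). Limma also called P28 against the Fgfr3-WT clones with either pseudocount (adjusted p = 0.0156 and 0.00657). The log2 fold change was 1.61 (standard error 0.935, edgeR adjusted p = 0.19) in the P28 clones, -0.98 (standard error 0.995, adjusted p = 0.441) in the P4M clones and -2.59 (standard error 1.05, adjusted p = 0.141) between P4M and P28. Leaving out 1 clone moved the first to between 1.26 and 2.53 and the second to between -1.77 and -0.06. They were 2.53 and -0.06 without Fgfr3-WT replicate 5, and the second was -1.77 without P4M replicate 4. The last was called without Fgfr3-WT replicate 1 (log2 fold change -2.58, adjusted p = 0.0411, edgeR), a clone that enters only through the shared estimate of spread. Read counts per gene do not tell the long and short p63 isoforms apart.

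Epithelial markers were near 0 in all groups. Krt5 and Krt14, keratins of the basal epithelium in which p63 is best known, were at 0 in all P28 clones, where Trp63 was highest. Cdh1, the E-cadherin gene, was at 0 in the Fgfr3-WT clones, at 0.01 to 2.39 TPM in the P28 and at 0.08 to 1.16 TPM in the P4M clones. It was called higher in both cKO groups (edgeR adjusted p = 0.0119 and 0.013), though not on log2(TPM + 1) (limma adjusted p = 0.103 and 0.174). Its part in the Trp63 values was not tested. Trp73 (ENSMUSG00000029026, chr4:154056253-154140208, minus strand) held 0 or 1 read in the Fgfr3-WT clones, 0 to 4 in the P28 and 0 to 2 in the P4M clones. It was at 0 in 8 of the 14 clones and was not tested. The antisense gene Trp73os shares 280 exonic bases with Trp73 and held no reads.

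The order of the genes by level changed between genotypes. On the TPM scale, the Fgfr3-WT clones ranked Mdm2 first at 143 ± 64.7 TPM (SD, n = 5), above Mdm4 at 51.3 ± 21.5, Trp53 at 47.3 ± 8.02, Usp7 at 33.3 ± 5.96, Ppm1d at 6.11 ± 1.55 and Trp63 at 1.07 ± 1.30 TPM. The ranges of Mdm4 and Trp53, of Trp53 and Usp7, and of Trp63 and Trp73 overlapped. In the P28 clones Usp7 came first at 53.1 ± 12.0 TPM (SD, n = 5), with a range that overlapped that of Mdm2 at 37.2 ± 5.27 TPM. Mdm4 followed at 21.2 ± 5.99 TPM, Ppm1d at 8.88 ± 1.64 TPM, and Trp63 at 3.63 ± 0.788 TPM next to the residual Trp53 at 2.54 ± 0.179 TPM. In the P4M clones Usp7 at 42.8 ± 1.33 TPM (SD, n = 4) and Mdm2 at 42.0 ± 8.09 TPM overlapped, and Mdm4 was at 19.6 ± 1.27 and Ppm1d at 11.3 ± 0.58 TPM. The ratio of Usp7 to Mdm2 in TPM was 0.151 to 0.375 in the Fgfr3-WT clones, 1.16 to 1.54 in the P28 and 0.821 to 1.25 in the P4M clones.

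**Figure D4:**
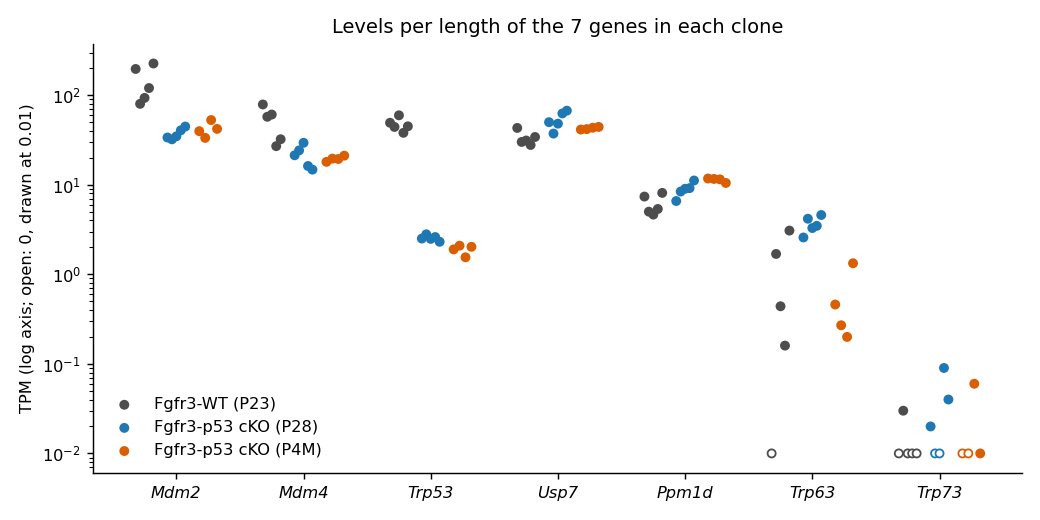
Level per length of the 7 genes in each clone, in TPM on a log axis, with values of 0 drawn as open points at 0.01. Mdm2 is the highest gene in every Fgfr3-WT clone, Usp7 and Mdm2 are close in the cKO clones, and Trp73 stays below 0.1 TPM.

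The rest of the pathway was read through 6 lists with 67 genes, all of which were tested. Of these, 30 were called in the P28 clones (44.8%, against 38.9% of all genes) and 36 in the P4M clones (53.7%, against 45.9%). Called genes of the P28 clones were 15 higher and 15 lower, and those of the P4M clones 23 higher and 13 lower. With P28 replicates 1 to 3 alone, 25 were called in the P28 group. Between the P4M and P28 clones 4 were called, all higher (5.97%, against 7.22%).

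The p53 target genes that serve as its output had the lowest median of the 6 lists. Of its 9 genes, 7 fell in the P28 and 6 in the P4M clones, and none rose in either, where 19.7% and 23.6% of all genes fell. The median log2 fold change was -2.25 and -1.81, against -0.02 and -0.06 over all genes. Eda2r, a receptor gene, was at 5.58 to 64.2 CPM in the Fgfr3-WT clones. It was at most 1.51 CPM in the P28 and 2.37 CPM in the P4M clones. Its log2 fold changes were -5.42 and -4.13, or -4.79 and -3.51 without Fgfr3-WT replicate 5. The P28 value was -6.09 without P28 replicate 3. Over the 23 alternatives the weakest values of Eda2r were -2.76 and -2.36, and its calls held in all of them. Ccng1, which encodes cyclin G1, fell by 2.30 and 2.67 on the log2 scale (adjusted p = 0.000314 and 0.000174, edgeR). Phlda3, an inhibitor of Akt, had log2 fold changes of -2.60 and -1.81. Trp53inp1, a stress protein, fell from a mean of 86.3 CPM to 19.6 CPM in the P28 and 10.8 CPM in the P4M clones. Zmat3, an RNA-binding protein, fell with log2 fold changes of -1.09 and -1.53, the first of which was not called on the TPM scale (limma adjusted p = 0.117). Sesn1 and Sesn2 were called in neither group.

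Cdkn1a, which encodes the cell cycle inhibitor p21, was the one target of the 9 called between the cKO groups. It was at 174 to 331 CPM in the Fgfr3-WT clones, 12.9 to 58.7 CPM in the P28 and 96.3 to 265 CPM in the P4M clones. The P4M clones lay above all P28 clones, as for 19.0% of all genes in either direction, and overlapped the Fgfr3-WT clones. Against these, the log2 fold change was -2.81 (edgeR adjusted p = 0.000223) in the P28 clones and -0.54 (adjusted p = 0.281) in the P4M clones. The P4M clones were higher than the P28 clones by a log2 fold change of 2.27 (with standard error 0.401, edgeR adjusted p = 0.00895). Aen, an exonuclease of apoptosis, had log2 fold changes of -2.25 and -2.44 with edgeR adjusted p-values of 0.0449 and 0.0413. It held 1 read in P4M replicate 2, and without that clone the adjusted p-values were 0.000106 and 0.000563. Both calls were lost when any other clone but Fgfr3-WT replicate 1 was left out.

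**Figure D5:**
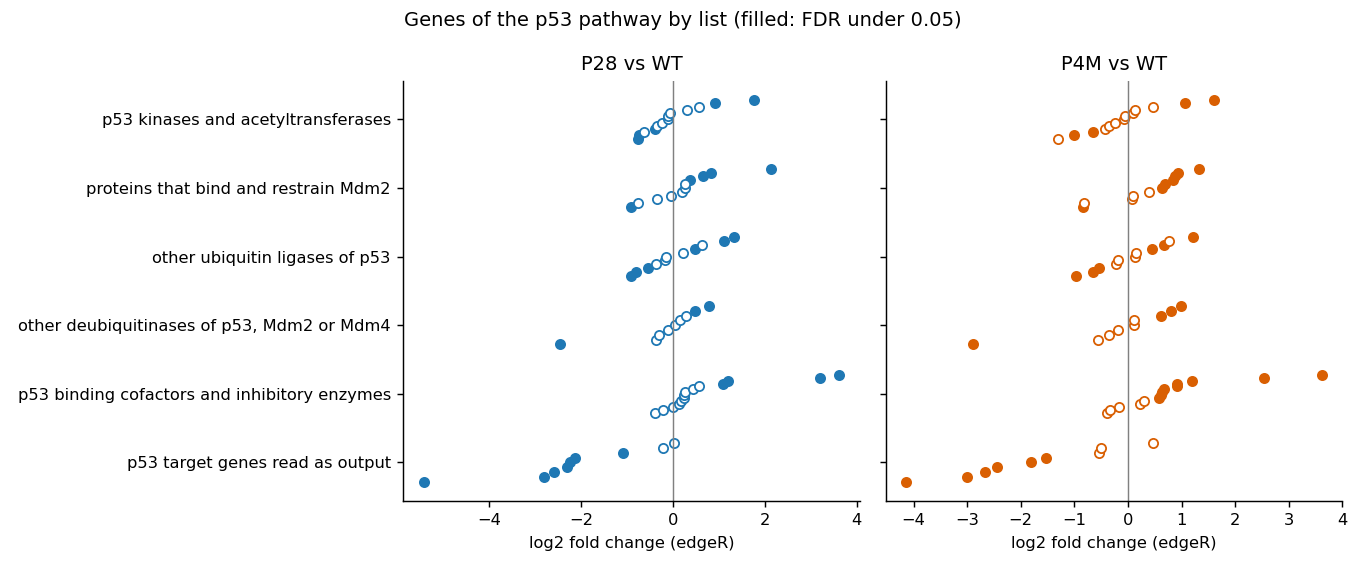
Log2 fold changes by edgeR of the 67 genes of 6 p53 pathway lists in the P28 clones (left) and the P4M clones (right) against the Fgfr3-WT clones, with filled points for an FDR under 0.05. The target genes lie mostly left of 0, with 7 and 6 of 9 called lower, and the other 5 lists lie on both sides.

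Of 11 genes whose proteins bind and restrain Mdm2, 4 rose and 1 fell in the P28 clones, and 6 rose and 1 fell in the P4M clones, where 19.2% and 22.3% of all genes rose and 19.7% and 23.6% fell. The medians were 0.26 and 0.63 (log2). Cdkn2a, whose locus encodes both p16 and the Mdm2 inhibitor Arf, rose from 13.9 to 208 CPM in the Fgfr3-WT clones to 302 to 583 CPM in the P28 clones (log2 fold change 2.12, standard error 0.568, edgeR adjusted p = 0.0101, or 2.74 without Fgfr3-WT replicate 3). The P4M clones held 72.4 to 178 CPM and overlapped the Fgfr3-WT clones (log2 fold change 0.40, edgeR adjusted p = 0.603). Without Fgfr3-WT replicate 3, the highest at 208 CPM, this value was 1.01 (adjusted p = 0.127). The P4M clones lay below the P28 clones without overlap, as for 19.0% of all genes in either direction. Cdkn2a was not called between these groups (log2 fold change -1.73, edgeR adjusted p = 0.0946). Counts per gene do not separate p16 from Arf. Npm1, the nucleolar protein nucleophosmin, rose to 1041 to 1258 CPM in the P4M clones from 372 to 526 CPM (log2 fold change 1.32, adjusted p = 6.59e-05, edgeR). Rpl5, a ribosomal protein, and Gnl3, the nucleolar protein nucleostemin, were called higher in the P4M than in the P28 clones (log2 fold changes 0.67 and 0.52, adjusted p = 0.038 and 0.0432), and both were named after their values were seen. Both calls were lost without any one of P28 replicates 1, 3 and 4 or P4M replicates 1, 2 and 4, with edgeR adjusted p-values of up to 0.097 and 0.109.

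The enzymes that act on p53 and its regulators moved both ways, and their counts are to be read against 19.2% of all genes rising and 19.7% falling in the P28 clones, and 22.3% and 23.6% in the P4M clones. Of 11 other ubiquitin ligases of p53, 3 rose and 3 fell in each cKO group, among them Topors, which rose by a log2 fold change of 1.33 in the P28 and 1.21 in the P4M clones, and Ube4b, at 1.12 in the P28 clones. Of 9 other deubiquitinases, 2 rose and 1 fell in the P28 clones, and 3 rose and 1 fell in the P4M clones. The one that fell was Usp2, which acts on Mdm2 and Mdm4. It was at 16.0 to 29.2 CPM in the Fgfr3-WT clones, 1.64 to 5.37 CPM in the P28 and 1.73 to 3.71 CPM in the P4M clones, with log2 fold changes of -2.45 (adjusted p = 0.000163, edgeR) and -2.89 (adjusted p = 9.06e-05). Of 13 p53 kinases and acetyltransferases, 2 rose in each group, Chek1 and Vrk1, and 3 and 2 fell. Chek1, a kinase of the replication checkpoint, had log2 fold changes of 1.76 and 1.60. The acetyltransferase gene Kat8 fell by 1.01 on the log2 scale in the P4M clones.

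Of 14 binding cofactors and inhibitory enzymes of p53, 4 rose in the P28 and 9 in the P4M clones, where 19.2% and 22.3% of all genes rose, and none fell. The mitotic kinase genes Aurka (log2 fold changes 3.62 and 3.61) and Plk1 (3.20 and 2.54) stood highest, and those of Prmt5, an arginine methyltransferase, were 1.08 and 1.19. The Plk1 call in the P4M clones (edgeR adjusted p = 0.0337) was lost without Fgfr3-WT replicate 1, 2 or 5 or P4M replicate 3 or 4, with adjusted p-values of up to 0.0754. Fgfr3-WT replicate 4 held more Plk1 than the other Fgfr3-WT clones, at 11.1 CPM, and without it the log2 fold changes of Plk1 were 4.78 and 4.11 and those of Aurka 4.48 and 4.47. The deacetylase gene Hdac1 rose by a log2 fold change of 1.21 in the P28 clones. Ppp1r13l, the inhibitory member iASPP of the ASPP family, was higher in the P4M than in the P28 clones (log2 fold change 1.01, standard error 0.172, edgeR adjusted p = 0.00757). On the TPM scale this value was 0.47 or 0.44, by pseudocount, and was not called (limma adjusted p = 0.145 and 0.143). All 5 proliferation markers, Mki67, Top2a, Ccnb1, Cdk1 and Mcm5, rose in both cKO groups (Cdk1 was not called with P28 replicates 1 to 3 alone, edgeR adjusted p = 0.105), with sums of 16.5 to 96.3 TPM in the Fgfr3-WT clones, 145 to 492 TPM in the P28 and 190.4 to 422 TPM in the P4M clones. Without Fgfr3-WT replicate 4 the log2 fold changes of Mki67 were 5.44 and 5.47, against 3.62 and 3.65 with it. The part of these markers in the rise of Aurka, Plk1 and Chek1 was not tested.

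Of the 9 skeletal stromal markers, 3 rose and 2 fell in both cKO groups, where 19.2% and 22.3% of all genes rose and 19.7% and 23.6% fell. Col1a1, Lepr, the leptin receptor of marrow stroma, and Runx2, the transcription factor of osteoblasts, rose. The mean of Runx2 went from 51.0 CPM to 114 and 191 CPM. P4M replicate 3 held 0.2765 CPM of Lepr, within the Fgfr3-WT range of 0 to 0.2770 CPM. The other P4M clones held 24.5 to 126 CPM of Lepr. Sox9, the transcription factor of cartilage, fell from 143 to 31.9 and 13.6 CPM (a log2 fold change of -3.39 in the P4M clones, or -4.05 without P4M replicate 3), and Fgfr3 itself from 67.1 to 14.4 and 12.1 CPM. Lepr in the P28 clones was not called on log2(TPM + 1), and Runx2 not with P28 replicates 1 to 3 alone (edgeR adjusted p = 0.0589). The Fgfr3 calls were lost without Fgfr3-WT replicate 1 or 3 or P28 replicate 1, 2 or 3 in the P28 clones, and without Fgfr3-WT replicate 1 or P4M replicate 1, 3 or 4 in the P4M clones, with edgeR adjusted p-values of up to 0.0666 and 0.0628. With P28 replicates 1 to 3 alone, the log2 fold change of Fgfr3 in the P28 clones was -4.09, against -2.22 with all 5 and -3.04 without replicate 4 alone.

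Of the 6 endothelial markers, Vwf and Kdr were tested. Vwf, the von Willebrand factor gene, rose in the P4M clones against the Fgfr3-WT and the P28 clones (log2 fold changes 5.16 and 6.07, edgeR adjusted p = 0.00335 and 0.0135). P4M replicate 3 held 237 CPM of it and the other 3 P4M clones 3.46 to 6.74 CPM, and without that clone the values were only 1.50 and 2.43, though still called by edgeR. On log2(TPM + 1) neither was called (limma adjusted p = 0.0504 and 0.08). Kdr, a VEGF receptor gene, rose in the P28 and the P4M clones (log2 fold changes 3.61 and 5.56, edgeR adjusted p = 0.019 and 0.00224). Without Fgfr3-WT replicate 4 these values were 7.03 and 8.98, without P28 replicate 2 the first was 2.92, and the P28 value was not called on log2(TPM + 1). Of the haematopoietic markers only Csf1r was tested, and it was called in the P28 clones at 0.215 to 1.46 CPM (edgeR adjusted p = 0.0366), a call lost without Fgfr3-WT replicate 1, 2, 4 or 5 or P28 replicate 1, 3 or 4. The part of these markers in the results was not tested.

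The genes most like each of the 6 tested genes over the 14 clones were sought among 9660 expressed genes by Pearson correlation of log2 CPM, a description over clones that share the number in their sample names within a genotype and differ in depth. Tusc2, Sirt4 and the pseudogene Rpl3-ps1 were most like Trp53, at r = 0.98, 0.978 and 0.977. With group means taken out these fell to 0.126, 0.565 and 0.289, so the likeness lay more between than within groups. Mdm2 was most like the pseudogene Gm13394 (r = 0.962), Dalrd3 (0.96) and Snrnp27 (0.958), and Mdm4 was most like Aasdh (0.973), 5730455P16Rik (0.953) and Vamp1 (0.947). Ppm1d went with Nop56 (0.941), Hpcal1 (0.933) and Mrpl12 (0.929), and Trp63 with Itga11 (0.909), Palld (0.893) and Ptpn1 (0.893). The order differed on log2(TPM + 1), where Itga11 had r = 0.813 with Trp63, against 0.913 for Palld. On that scale Aasdh had r = 0.905 with Mdm4, against 0.949 for Vamp1. With group means taken out of log2 CPM, r was 0.843 to 0.933 for the genes like Trp63 and 0.856 to 0.908 for those like Mdm4. It was 0.772 to 0.817 for those like Ppm1d and 0.539 to 0.827 for those like Mdm2. The genes most like Usp7 were Crkl (0.967), Zdhhc8 (0.911) and Med15 (0.907). With group means taken out these stayed at 0.948, 0.937 and 0.912. All 3 lie on chromosome 16, as Usp7 does, with starts at 17451987, 18220753 and 17651208 in mm10.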

How the data were processed

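Bulk RNA-seq of 14 single-cell-derived clones was used. By their methods, the authors prepared cDNA with SMART-Seq v4, an unstranded kit, sequenced single-end reads, aligned them to mm10 with TopHat and Bowtie2 and counted unambiguous reads with HTSeq, and the submitters' processing notes name the same tools. The deposited counts are whole reads per gene, not normalized. The deposited TPM values were scaled by the authors for length and depth, with a program not given in the sources used here. Tables of normalized values and of expected counts, which equal the counts, were not used.

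Genes were tested in R 4.3.3 with edgeR 4.0.16: filterByExpr with the 3 groups, TMM, a robust quasi-likelihood fit of all clones without batch term (each number in the sample names, 1303 or 2963, goes with a single genotype), and Benjamini-Hochberg adjustment over all 17358 genes. The steps were tested on simulated data. CPM are TMM-scaled. Log2 CPM used a prior count of 2. Neighbours (GENCODE M21) were tested genes whose log2 CPM averaged 3 or more. Alternatives used DESeq2 1.42.0, limma 3.58.1 on log2(TPM + 0.1) and log2(TPM + 1), other filters and scalings, and clones left out. Figures were drawn with Python 3.11.15 and matplotlib 3.10.9.

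Named were all 7 genes, called list genes past a log2 fold change of 1 either way, list genes with no row in the table, Cdkn1a and Ccng1, overlapping genes and the 3 genes most like each. Members and lists were chosen with earlier results of these data known. Promoter sequences are from RefSeq, and 6 of the 7 genes matched. Trp63 had no entry. Reads without molecular identifiers are not independent molecules, so count limits cover counting error only.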

Additional observations from a re-analysis of the deposited data

Results flagged for a closer look

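Among the 67 genes of the pathway lists, 4 differed between the P28 and the P4M response, by the edgeR test of P4M against P28 among clones whose sample names all carry the number 2963. The P4M clones were higher by a log2 fold change of 2.27 for Cdkn1a, 1.01 for Ppp1r13l, 0.67 for Rpl5 and 0.52 for Gnl3. Cdkn1a was called in all 23 alternatives, Ppp1r13l in all but 2, both on the TPM scale (0.47 and 0.44), while Rpl5 lost its call in 11 of 23 and Gnl3 in 14 of 23. The endothelial marker Vwf differed by 6.07, and by 2.43 without P4M replicate 3. No single clone of the 6 tested family and regulator genes stood apart from its group by Dixon's criterion in the 18 groups screened, where chance flags about 5% of groups.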

How the results depend on the processing

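The calls of Trp53, Mdm2 and Mdm4 in both cKO groups and of Ppm1d in the P4M clones held under all 161 alternative values computed for them. With a log2 fold change past 1 either way required, Ppm1d left the P4M count, and 4040 genes (P28) and 5149 genes (P4M) were called, with 16 and 15 in the pathway lists, and 2 between P4M and P28. On the TPM scale, limma called 6 of the 6 genes in the P28 clones with either pseudocount, adding Trp63, Ppm1d and Usp7, but the median of all genes was then shifted by 0.31 and 0.20 (log2) and 73.7% and 72.6% of calls were higher, against 49.4%. Usp7 in the P28 clones was also called without scaling (log2 fold change 0.44), by DESeq2 (0.36) and with 10 counts in every clone (0.38). P4M against P28 depended most on the processing. DESeq2 called 2607 genes, 2 of the 6 and 9 list genes, and a fit of these groups alone 3102, 3 (Trp63, Mdm2 and Ppm1d) and 13. Limma on log2(TPM + 1) called 1 of the 6, and no scaling left 2 list genes. Of the calls in this comparison 46.3% were higher, against 33.2% without scaling and 21.9% and 23.9% on the TPM scale, where the median of all genes shifted by -0.19 and -0.14. Over the 14 fits that each left out 1 clone, 479 to 2118 genes, 0 to 2 of the 6 and 2 to 7 list genes were called, the most without Fgfr3-WT replicate 1 and the fewest genes without P4M replicate 1. In the comparisons with the Fgfr3-WT clones, the same fits called 5843 to 7282 and 6696 to 8503 genes, 3 to 4 and 4 to 4 of the 6, and 25 to 33 and 32 to 38 list genes. Not called in either direction, Mdm4 turned from 0.23 to -0.07 on the TPM scale with both pseudocounts (-0.073 and -0.071), and Usp7 from -0.09 to 0.04 without P28 replicate 5 (range over clones left out -0.167 to 0.038) and to 0.155 with P28 replicates 1 to 3, an alternative chosen after seeing the data. With a window of 10 Mb the median of the neighbours was 0.195 (Trp53, P4M), -0.389 and -0.271 (Mdm2, P28 and P4M), 0.126 (Mdm4, P4M) and 0.214 (Ppm1d, P4M). After seeing the data, the values of 65 named pairs of a list or marker gene and a comparison were followed through the same alternatives. Calls of other list genes, such as Atr and Dyrk2 in the P28 clones, were not followed singly. Cdkn1a and Cdkn2a in the P4M against the Fgfr3-WT clones, and Ccng1 between the cKO groups, had no call to lose. Of the 1480 values of the named pairs, 99 lost the call. These were values of Aen, Plk1, Zmat3, Ppp1r13l, Rpl5, Gnl3, Fgfr3, Csf1r, Vwf, Kdr, Cdh1, Lepr, Runx2 and Cdk1. The cause of these changes was not tested. No paired analysis was possible because the replicate numbers are running numbers that link no clones.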
